A study of Mus musculus with 14 samples.

Results

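H3K9ac, the acetylation of lysine 9 on histone H3 that marks active promoters and enhancers, was examined at 10 genes of the circadian clock in regenerating mouse liver. The genes were the activator Arntl, the repressors Per1, Per2, Per3 and Cry1, the nuclear receptors Nr1d1 and Nr1d2, and the PAR bZIP factors Dbp, Tef and Hlf. A region was taken when it overlapped the RefSeq span of one of these genes on mm10, or the 10 kb on either side, in any of the 12 peak lists. This gave 63 of the 57979 regions formed by merging all lists. All 10 genes had such regions, and 22 of the 63 were called in all 12 libraries, of 12375 such regions in the genome.

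The libraries came from livers of male C57BL6/J mice of 2 to 3 months, taken 12 h after partial hepatectomy, the surgical removal of part of the liver, and chromatin was precipitated with an antibody to acetylated H3K9. The question was what happens to this mark when the drop in blood glucose after the operation is delayed. Titles and treatment labels go against each other: the 6 libraries with d22 in the title are labelled with the PBS vehicle, and the 6 with pbs in the title with 22.5% dextrose. The pooled inputs of both title groups, against which peaks were called, are labelled with 22.5% dextrose. Groups here follow the title, differences are d22 minus pbs, and the treatment of neither group is taken as known. All groups shared the strain, the sex, the operation and the interval after it. The hour of the day at harvest is not given in the sources used here, and they do not say whether each library is a different animal, so a p-value reflects only the spread among these libraries, part of which may be technical. Fewer cells carrying the mark and less of the mark per cell cannot be told apart in such tissue libraries.

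The circadian clock is a feedback loop of transcription that runs in nearly every cell, the hepatocyte included. ARNTL (also called BMAL1) and CLOCK bind E-boxes and switch on the Per and Cry genes, whose proteins return to the nucleus and silence them. A second loop runs through NR1D1 and NR1D2 (REV-ERB alpha and beta), which repress Arntl at ROR elements, and the PAR bZIP factors DBP, TEF and HLF pass the rhythm on to genes of liver metabolism through D-boxes.

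The promoters of the genes with the most different levels between groups are shown with the clock motifs they hold, to set the mark beside the sequence at gene starts. Each is the 250 bases upstream of a RefSeq start (GRCm38.p6), 5' to 3' on the strand of the gene. Capitals mark a D-box (TTANGTAA), a ROR element (TNGGTCA), an E-box (CACGTG) or a cAMP response element (TGACGTCA), searched on both strands; a ROR element on the other strand reads TGACCNA.
Per3 (chr4:151044666-151044915, minus strand): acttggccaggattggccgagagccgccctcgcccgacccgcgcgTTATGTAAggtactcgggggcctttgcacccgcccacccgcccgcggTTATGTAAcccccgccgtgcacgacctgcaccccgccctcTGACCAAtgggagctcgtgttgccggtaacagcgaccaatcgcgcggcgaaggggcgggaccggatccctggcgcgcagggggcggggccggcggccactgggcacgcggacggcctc
Arntl, first of its listed starts (chr7:113207215-113207464, plus strand): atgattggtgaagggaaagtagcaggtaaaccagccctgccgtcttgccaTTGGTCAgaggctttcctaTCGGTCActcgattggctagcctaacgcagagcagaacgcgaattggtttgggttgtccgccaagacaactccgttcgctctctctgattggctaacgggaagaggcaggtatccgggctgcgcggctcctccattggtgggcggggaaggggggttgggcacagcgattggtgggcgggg
Tef, internal start (chr15:81811164-81811413, plus strand): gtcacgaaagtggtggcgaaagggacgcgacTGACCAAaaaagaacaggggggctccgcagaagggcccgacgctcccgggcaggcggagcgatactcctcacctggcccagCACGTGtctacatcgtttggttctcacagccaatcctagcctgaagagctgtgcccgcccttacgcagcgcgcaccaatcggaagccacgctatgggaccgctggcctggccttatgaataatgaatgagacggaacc
Dbp (chr7:45704997-45705246, plus strand): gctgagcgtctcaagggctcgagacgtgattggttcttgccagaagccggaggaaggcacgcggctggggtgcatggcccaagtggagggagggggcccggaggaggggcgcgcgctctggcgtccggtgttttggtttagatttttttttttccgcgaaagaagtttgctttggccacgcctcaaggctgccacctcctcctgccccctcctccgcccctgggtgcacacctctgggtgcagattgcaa
Nr1d1 (chr11:98775378-98775627, minus strand): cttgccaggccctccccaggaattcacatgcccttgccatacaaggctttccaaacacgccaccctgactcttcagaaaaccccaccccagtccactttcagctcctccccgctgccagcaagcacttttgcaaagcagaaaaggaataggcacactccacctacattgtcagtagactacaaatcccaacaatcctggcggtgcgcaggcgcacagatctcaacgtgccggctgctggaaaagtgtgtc

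The D-box occurred in 2.06%, the ROR element in 9.19%, the E-box in 6.02% and the cAMP response element in 1.55% of 32851 such windows. Per3 held D-boxes at -205 and -158 from its start and a match to the ROR letters at -118, and Arntl held such matches at -200 and -181. The internal start of Tef had an E-box at -138 and a match to the ROR letters at -219. These letters allow any base before GGTCA, and the matches at Per3, Arntl and Tef have T or C there, so they are loose. Whether any receptor binds them was not measured. Dbp and Nr1d1 held none of the 4 motifs in this window, which says only that these letters are not in it. Among the sequences not printed, an E-box stood at -127 of the upstream Tef start, at -60 of Cry1 and at -166 of a Per1 start, and a cAMP response element at -9 of Hlf. The table of promoters matched 9 of the 10 genes, Per2 being the one not matched.

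A called peak lay over part or all of the Dbp, Cry1, Per1 and Nr1d2 windows in all 12 libraries and of those of Per3 and the upstream Tef start in 11. It did so for the window of the internal Tef start in 10 libraries, for those of Nr1d1 and the first Arntl start in 9, for that of the other Arntl start in 6 and for that of Hlf in 2. The whole window was covered in 11 libraries for Cry1, in 10 for Nr1d2 and the internal Tef start, in 7 and 9 for the Per1 windows and in 5 for Dbp. It was covered in 3 for Nr1d1, in 1 each for Per3, the upstream Tef start and Hlf, and in 0 for both Arntl starts. Where a peak covered only part of a window, a motif in it may lie outside the peak. The summits of the region with the most tags lay downstream of the nearest listed start in every library for Per1 (461 to 833 bp), Per3 (185 to 626 bp), Nr1d1 (343 to 1051 bp), Nr1d2 (119 to 917 bp) and Hlf (2932 to 3051 bp). In the region across the Dbp start they also lay downstream, at 1166 to 1419 bp. They lay on both sides for Cry1 (-191 to 1489 bp) and Tef (-665 to 1325 bp). For Arntl they lay upstream in every library, at -529 to -447 bp, but the region used ends before both listed starts, which fixed this side in advance. The neighbouring Arntl region lies across these starts, with 757 tags over the 12 libraries against 831, and its summits are not given here.

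Depth after filtering ran from 6343891 tags in d22 4 to 13259411 in pbs 1, and 16.4% to 26.6% of a library's tags lay in its peaks. The library d22 4 stood apart: it was the shallowest, had the most peaks (44585, against 26352 to 30780 in the others), and held 9 of the 21 clock gene regions that 1 library alone called. Peaks of each title group were called against a pooled input of that group alone, and effects of that input and of the group cannot be told apart. Tags were 48 bp long in pbs 1, pbs 4 and pbs 6 and 49 bp in the others, so the comparison was also made over the 49 bp libraries alone (6 against 3). All 8 hepatocyte markers examined had a region called in all libraries, with summed levels of 2075 to 2412 CPM (edgeR's counts scaled for library size, over tags in tested regions) in d22 and 2229 to 2608 CPM in pbs. Of the markers of other cells, 1 of 5 endothelial genes (Pecam1) and 1 of 4 bile duct genes (Sox9) had one, and none of the macrophage, neutrophil, lymphocyte, stellate or erythroid markers did. No marker region passed the test between groups, and their part in the values below was not tested.

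Tags in the 22 clock gene regions were compared with edgeR's quasi-likelihood test, adjusted over all 12375 regions by Benjamini-Hochberg. Only 1 of the 22 passed, a region downstream of Tef that was higher in d22, beside 1.01% of all regions passing in either direction (0.558% lower and 0.453% higher). Values were lower in d22 at 13 of the 22 and higher at 9, with a median log2 difference of -0.05 beside 0.0032 over all regions. At an unadjusted p under 0.05 there were 5 lower and 3 higher, where all regions gave 5.83% lower and 5.07% higher. The lower ones were at Per3, Nr1d1, Dbp (both regions touching the gene) and the internal start of Tef, and the higher ones were at Arntl and the 2 stretches after the end of Tef. Close neighbours at Arntl, at Dbp and after Tef are counted as separate regions here. With peaks within 500 bp merged, each pair became 1 region. In edgeR the differences were then 0.37 at Arntl (adjusted p = 0.41), -0.34 at Dbp (adjusted p = 0.21) and 0.53 after Tef (adjusted p = 0.039). In 3 of the 22 the groups did not overlap (2 lower, at Nr1d1 and at Tef, and 1 higher, after Tef), beside 0.743% of all regions lower and 0.59% higher without overlap. Scaling by library totals instead of TMM, edgeR's default scaling, moved the median of all regions to -0.22, and it then called 5 of the 22, all lower (Per3, Nr1d1, both Dbp regions touching the gene and the internal start of Tef). DESeq2 also called 5, namely Per3, Nr1d1 and the Dbp start as lower and the 2 stretches after Tef as higher.

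**Figure D1:**
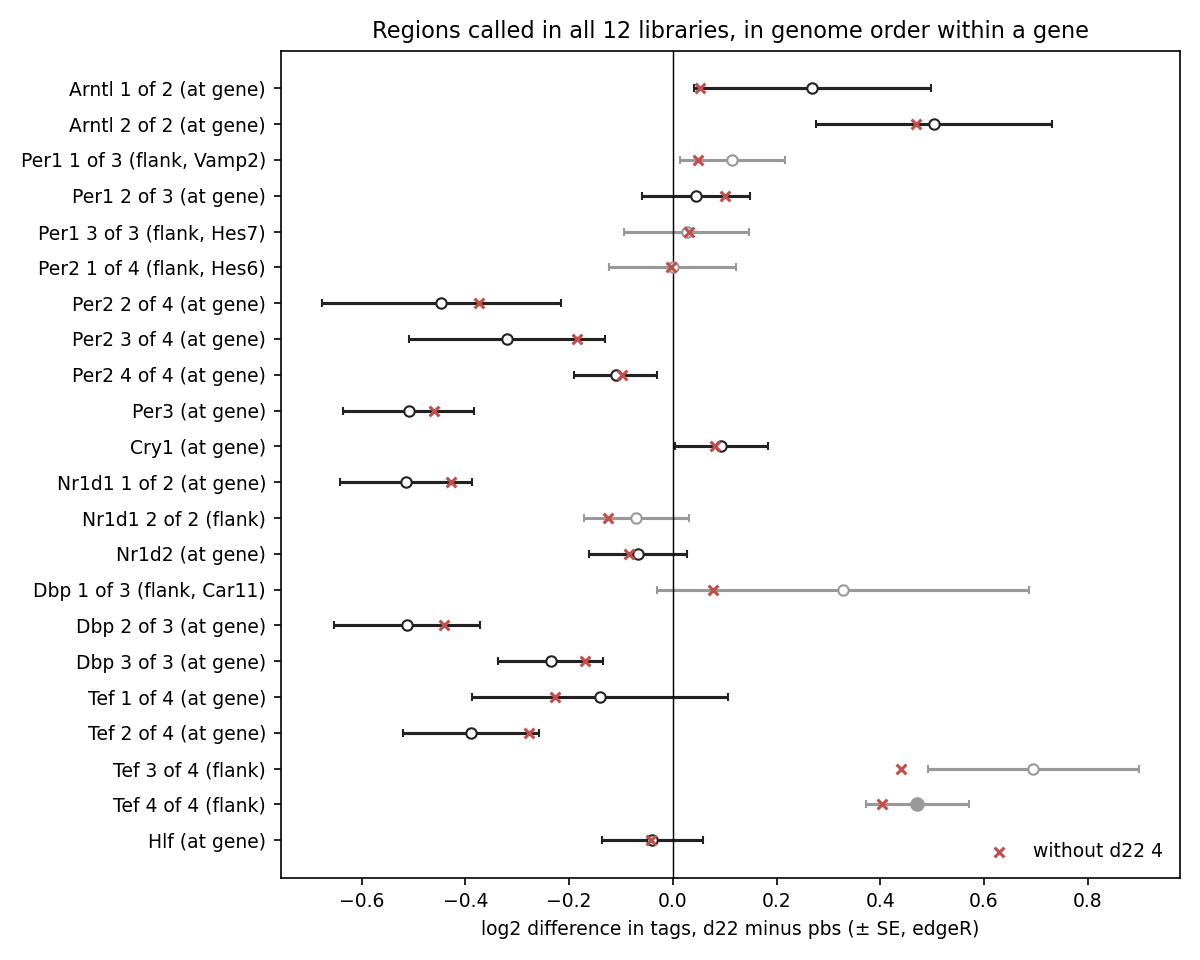
Log2 difference in tags (d22 minus pbs, x axis, with standard error) of the 22 clock gene regions called in all 12 libraries; black marks touch the gene, grey marks lie in its flanks, the filled mark passed the test, and crosses give the value without d22 4. The filled mark is the last of the 4 Tef regions, at 0.47, and the Per3 and Nr1d1 marks are both near -0.51.

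Arntl, the activator of the loop, had 2 neighbouring regions around its listed starts, inside the RefSeq span. At chr7:113205989-113207309 the levels were 34.2, 35.0, 30.1, 72.1, 43.7 and 24.1 CPM in d22 1 to 6 and 34.0, 34.4, 28.4, 33.3, 41.5 and 22.8 CPM in pbs 1 to 6. All libraries but d22 4 lay in 1 range, and the log2 difference of 0.27 dropped to 0.05 without it. At chr7:113207359-113209194 the levels were 22.5 to 48.1 CPM in d22 and 14.7 to 31.5 CPM in pbs, a log2 difference of 0.50 ± 0.23 (SE; adjusted p = 0.43, edgeR). Within the 49 bp libraries the differences were 0.15 and 0.42. The groups overlapped at both.

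Per1 and Per2, the repressors that respond to acute signals as well as to the clock, did not pass the test. The region across the Per1 starts (chr11:69093159-69101317) averaged 367.6 ± 43.5 CPM over the d22 libraries and 358.2 ± 53.6 CPM over the pbs libraries (SD, n = 6 each), a log2 difference of 0.04 ± 0.10 whose sign turns when library totals are used (-0.18). Its flanking regions, at Vamp2 and Hes7, differed by 0.11 and 0.03, and these signs turn too (-0.11 and -0.20). At Per2, values were lower in d22 at all 3 regions touching the gene. The region at its upper end (chr1:91453287-91461522) was at 239.6 to 258.0 CPM in d22 and 223.8 to 296.2 CPM in pbs, a log2 difference of -0.11 ± 0.08. Those inside the gene differed by -0.32 ± 0.19 (chr1:91438972-91447452) and by -0.45 ± 0.23 (chr1:91435005-91437880), with overlapping groups and adjusted p of 0.59 and 0.51 in edgeR's test. Without d22 4, where the first of these was at 60.7 CPM against 127.6 to 205.0 CPM in the other d22 libraries, its difference was -0.18. Within the 49 bp libraries the 3 Per2 regions differed by -0.23, -0.22 and -0.31, in the order given, and the Per1 region by 0.0024.

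Per3, a Per gene with a strong daily rhythm in liver, had 1 region, across its start and that of the predicted gene Gm38529 (chr4:151043070-151045750). The levels were 43.0, 47.5, 59.2, 37.9, 46.3 and 49.4 CPM in d22 1 to 6 and 70.8, 76.9, 54.5, 61.4, 62.0 and 78.4 CPM in pbs 1 to 6. Every d22 library but d22 3 lay below every pbs library, and the groups overlapped only through d22 3 and pbs 3. The log2 difference was -0.51 ± 0.13 (adjusted p = 0.068, edgeR), so it missed the threshold of 0.05. Of the fits that left out 1 library, only that without d22 3 passed (adjusted p = 0.037), and the largest adjusted p was 0.16 (without pbs 2). Within the 49 bp libraries the difference was -0.45 (adjusted p = 0.36). The merged region spans the D-boxes printed above, but a called peak covered the whole printed window in only 1 library.

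Cry1, the partner of the Per proteins, had its peak across the start (chr10:85182189-85186328), with 93.1 to 118.1 CPM in d22 and 88.5 to 109.3 CPM in pbs. The log2 difference was 0.09 ± 0.09 and changed sign under library totals (-0.12). It was 0.04 within the 49 bp libraries.

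**Figure D2:**
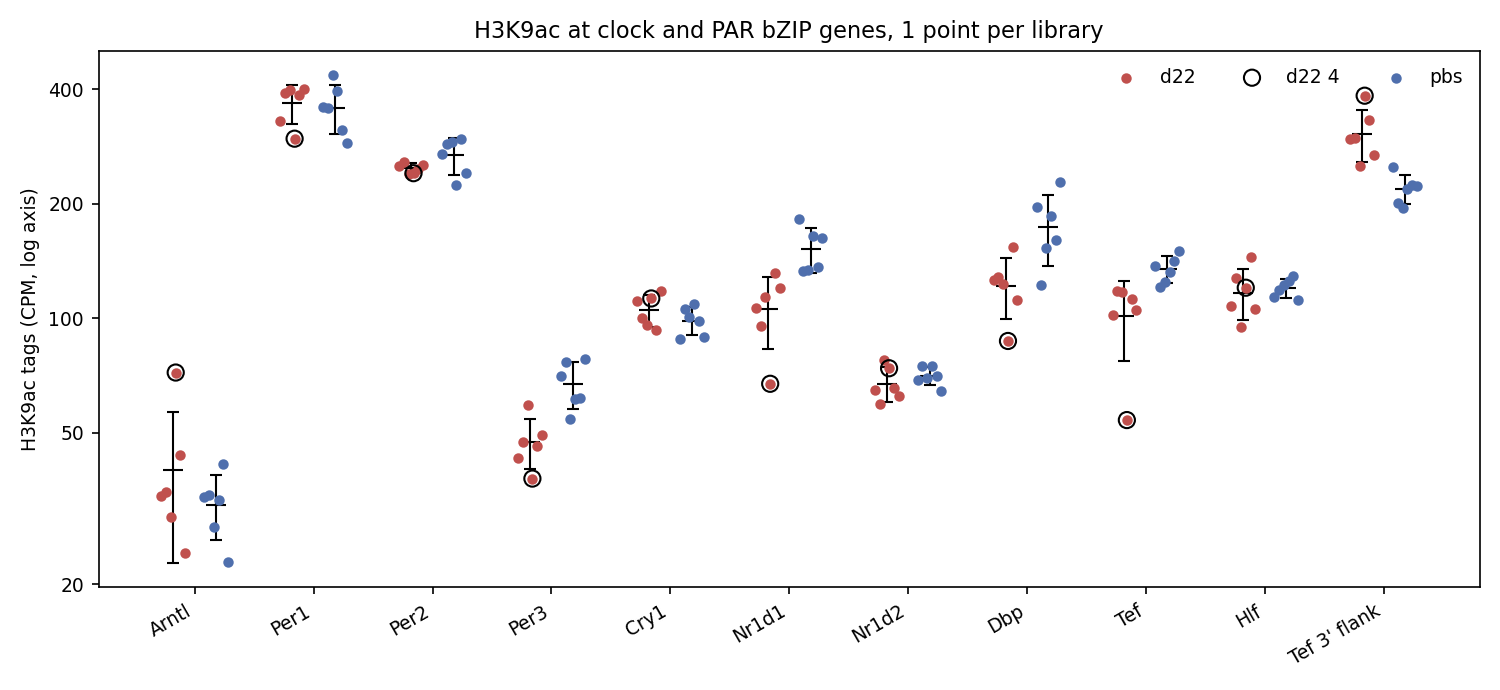
H3K9ac tags in CPM (log axis) for the region with the most tags at each gene, except for Dbp, where the region across its start is shown, and for the region downstream of Tef that passed the test; 1 point per library, d22 left and pbs right, bars are mean and SD over 6 libraries, and d22 4 is ringed. The groups do not overlap at Nr1d1, Tef and the Tef 3' flank, and d22 4 is the highest point at Arntl and the lowest d22 point at Per3, Nr1d1, Dbp and Tef.

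Nr1d1 encodes the heme-binding repressor REV-ERB alpha, whose level in liver swings widely over the day. Its region (chr11:98771233-98778470), across the start of the gene and reaching the lncRNA Gm31862, was at 106.7, 95.4, 113.9, 67.3, 131.5 and 120.0 CPM in d22 1 to 6 and 182.3, 133.3, 133.8, 164.3, 136.7 and 162.7 CPM in pbs 1 to 6. Every d22 library lay below every pbs library, with a gap from 131.5 to 133.3 CPM. Within pbs, the libraries with 48 bp tags (pbs 1, pbs 4 and pbs 6) all lay above those with 49 bp tags. Whether tag length plays a part was not tested. The log2 difference was -0.51 ± 0.13 (adjusted p = 0.071, edgeR). Of the fits that left out 1 library, only that without d22 5 passed (adjusted p = 0.047), and the largest adjusted p was 0.16 (without d22 2). The difference was -0.43 without d22 4 (adjusted p = 0.053) and -0.33 within the 49 bp libraries (adjusted p = 0.50). A flanking region upstream, over Gm31862 (chr11:98782179-98791023), differed by -0.07 ± 0.10, with overlapping groups.

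At Nr1d2, which encodes the related receptor REV-ERB beta, the region across the start (chr14:18237125-18240046) had 59.5 to 77.9 CPM in d22 and 64.7 to 74.9 CPM in pbs. The difference was -0.07 ± 0.09, and -0.09 within the 49 bp libraries. Whether Nr1d1 and Nr1d2 differ from each other in this was not tested.

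Dbp, the PAR bZIP gene with a strong daily rhythm in liver, had a region across its start that also touches Car11 (chr7:45703557-45709379). The levels were 126.5, 128.5, 123.0, 87.3, 154.2 and 111.5 CPM in d22 1 to 6 and 195.8, 122.8, 153.4, 185.4, 160.4 and 228.7 CPM in pbs 1 to 6. The groups overlapped through pbs 2, which lay among the d22 libraries, and through d22 5, which lay just above pbs 3. The log2 difference was -0.51 ± 0.14 (adjusted p = 0.115, edgeR). Of the fits that left out 1 library, only that without pbs 2 passed (adjusted p = 0.046), and the largest adjusted p was 0.23 (without d22 6). The difference was -0.24 within the 49 bp libraries, where the 3 pbs libraries are pbs 2, pbs 3 and pbs 5. The next region, from the 3' end of Dbp over Sphk2 and Rpl18 (chr7:45709609-45719993), had 183.1 to 289.9 CPM in d22 and 264.7 to 330.3 CPM in pbs, a difference of -0.24 ± 0.10 (adjusted p = 0.40) that belongs to 3 genes and cannot be given to 1. The flank at Car11 was low, with 7.7 to 34.1 CPM in d22 and 7.0 to 21.2 CPM in pbs.

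Tef had 4 regions that did not share a direction. At the 5' start (chr15:81801587-81804432) the levels were 22.4 to 51.6 CPM in d22 and 18.2 to 47.1 CPM in pbs, a difference of -0.14 ± 0.25. At the internal start (chr15:81809521-81814611), where the printed window lies, they were 102.1, 118.4, 117.1, 54.1, 112.6 and 105.5 CPM in d22 1 to 6 and 137.7, 120.8, 125.0, 132.4, 141.7 and 150.7 CPM in pbs 1 to 6. All d22 values lay below all pbs values, with d22 4 far below the rest, and the log2 difference of -0.39 ± 0.13 did not pass (adjusted p = 0.24, edgeR; -0.28 and 0.12 without d22 4). Within the 49 bp libraries it was -0.33 (adjusted p = 0.58).

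After the end of Tef the values were higher in d22. The region at chr15:81826940-81833128, 77 bp past the gene, had 88.6, 82.9, 80.2, 196.4, 98.4 and 62.1 CPM in d22 1 to 6 and 55.2 to 65.6 CPM in pbs. The difference of 0.70 ± 0.20 did not pass (adjusted p = 0.14) and was 0.44 without d22 4 (adjusted p = 0.052) and 0.71 within the 49 bp libraries (adjusted p = 0.42). The region at chr15:81833183-81842528, 6320 bp past the gene and over no annotated gene, had 296.9, 297.3, 251.0, 385.1, 332.0 and 268.8 CPM in d22 1 to 6 and 249.6, 201.7, 195.6, 219.3, 223.8 and 222.8 CPM in pbs 1 to 6. Every d22 library lay above every pbs library, the closest being d22 3 and pbs 1. Levels rose from 218.8 ± 19.1 CPM to 305.2 ± 47.9 CPM (SD, n = 6 each), a log2 difference of 0.47 ± 0.10 (adjusted p = 0.028, edgeR). On leaving out each library in turn the difference stayed between 0.40 and 0.53, but the call was lost without d22 2, d22 5, pbs 2, pbs 3, pbs 4, pbs 5 or pbs 6, with an adjusted p of at most 0.071. It was also lost under library totals (0.24, adjusted p = 0.26) and within the 49 bp libraries (0.55, adjusted p = 0.11). Which gene this region acts on was not measured.

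**Figure D3:**
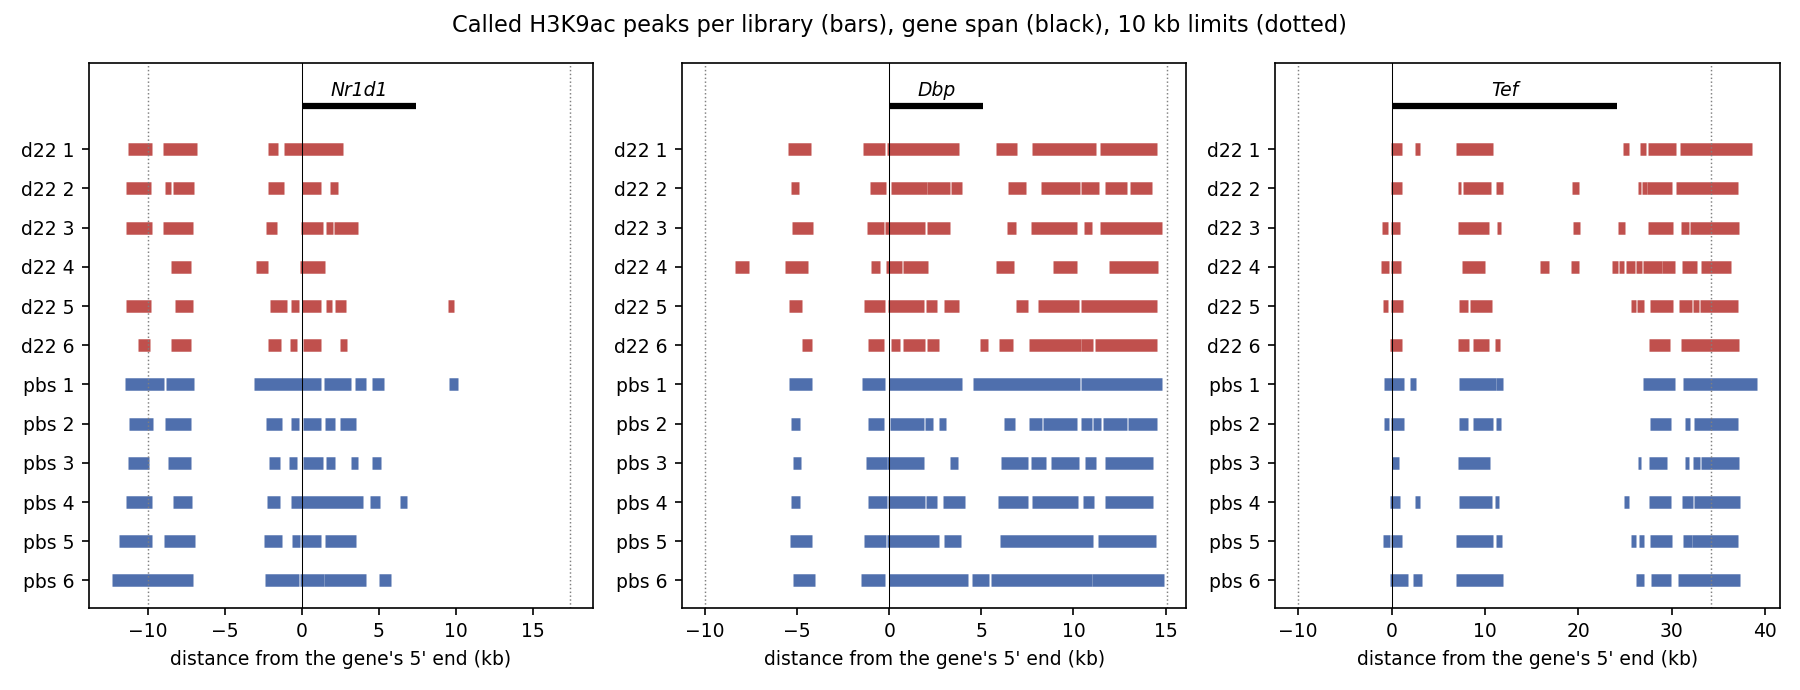
Called peaks (bars, 1 row per library, d22 above pbs) by distance from the gene's 5' end in kb at Nr1d1, Dbp and Tef, with the gene span in black and the 10 kb limits dotted. At Nr1d1 the region across the start was called over 3462 bp on average in d22 rows and 5329 bp in pbs rows, and at Tef the widest bars in every row lie past the end of the gene.

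Hlf, the third PAR bZIP factor, had its region from -498 to 5158 bp of its start (chr11:90385759-90391415), with 94.8 to 144.7 CPM in d22 and 111.7 to 129.0 CPM in pbs. The difference was -0.04 ± 0.10. Without d22 3 it was 0.03, and within the 49 bp libraries -0.08.

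With the tags of all peaks within 10 kb summed to 1 value a gene, 0 of the 10 genes passed, beside 0.797% of 12416 protein-coding loci (0.475% lower and 0.322% higher). The log2 differences were lowest at Per3 (-0.52 ± 0.14, adjusted p = 0.095, edgeR), Nr1d1 (-0.49 ± 0.16, adjusted p = 0.22) and Dbp (-0.31 ± 0.11, adjusted p = 0.27), and highest at Arntl (0.24 ± 0.20) and Tef (0.23 ± 0.08).  The Tef sum changes sign with the window, to -0.14 with 2 kb and -0.26 with no extension, with the region 6320 bp past its end outside both windows. The Per1 sum of 0.05 becomes -0.16 under library totals.

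Tags in a region depend on how widely it was called and on how dense the tags were there, so length and density were compared as well. Called length did not pass anywhere in the genome (0 of 12375 in limma, with 6.81% at an unadjusted p under 0.05). Most of these were shorter in d22 (5.8% of all regions). The median log2 difference in length was -0.08 over all regions and -0.15 at the clock gene regions. The Nr1d1 region spanned 3462 ± 857 called bp in the d22 libraries and 5329 ± 1245 bp in the pbs libraries (SD, n = 6 each), a log2 difference of -0.63 ± 0.19 (unadjusted p = 0.0048), while its tags per kb differed by 0.08 ± 0.14, near the 0.084 of the median region. Nr1d2 was called over 2109.8 ± 290.2 bp and 2624.7 ± 127.2 bp (log2 difference -0.33 ± 0.10, unadjusted p = 0.0066). Per3 had a like split, with 1366 ± 345 bp against 1831 ± 340.0 bp (log2 difference -0.44 ± 0.17) and a density difference of -0.07 ± 0.13. At the Dbp start the order was the other way round: length differed by -0.20 ± 0.17 and tags per kb by -0.31 ± 0.12 (unadjusted p = 0.014). Tags per kb passed at 0 of the 22 clock gene regions, beside 0.0404% of all regions (0.00808% lower and 0.0323% higher). The sums over called peaks were thus taken over stretches of unequal mean length at Nr1d1, Nr1d2 and Per3, though none of these length differences passed. Whether called width accounts for the tag differences was not tested, and at Nr1d2 the tags differed by only -0.07.

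Fold enrichment, the authors' ratio of tags over the local background, passed limma's test at 11 of the 22 regions, 10 lower and 1 higher in d22. Of all regions 20.2% passed, 18.9% lower and 1.34% higher, and their median log2 difference was -0.30, beside -0.40 at the clock gene regions. The lower ones were at Dbp (its start and the Car11 flank), Nr1d1, Per3, the internal start of Tef, all 3 Per2 regions touching the gene, the Hes6 flank of Per2 and the Vamp2 flank of Per1. At the Dbp start the highest fold enrichment in each library was 40.7, 39.3, 33.1, 31.9, 50.4 and 37.3 in d22 1 to 6 and 100.7, 58.0, 93.5, 76.9, 56.3 and 104.2 in pbs 1 to 6. The log2 difference was -1.05 ± 0.18 (adjusted p = 2.7e-05, limma), or -0.75 relative to the median region. Nr1d2 was the region that was higher, at 30.4 ± 7.74 for d22 and 19.2 ± 4.1 for pbs libraries (SD, n = 6 each), a log2 difference of 0.65 ± 0.21 (adjusted p = 0.022), although its tags differed by -0.07. The local background in this ratio comes from the input of each group. Leaving out 1 library gave between 3 and 13 clock gene regions that passed. Among these counts were 3 (without pbs 1), 5 (without d22 5), 6 (without d22 3 or pbs 6) and 7 (without d22 6).

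**Figure D4:**
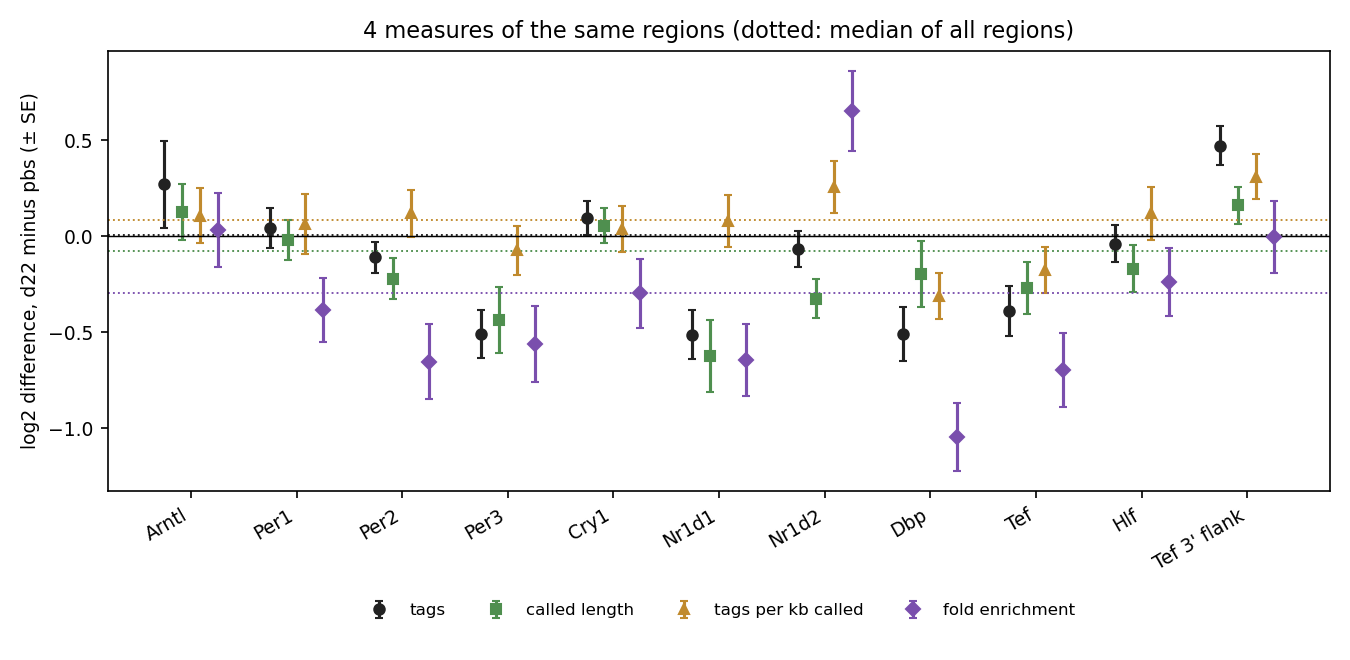
Log2 differences (d22 minus pbs, with standard error) of tags, called length, tags per kb called and fold enrichment for the same regions as in the plot of CPM by library; dotted lines give the median of all regions for each measure. Fold enrichment lies below its dotted line at Dbp (-1.05) and above it at Nr1d2 (0.65).

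Tags per kb of called peak allow levels to be set side by side between genes. Over all 12 libraries Per1 was highest at 60.6 ± 11.6 CPM per kb (SD, n = 12), followed by Per2 at 43.2 ± 5.8, and Per1 was above Per2 in 12 of 12 libraries and Per2 above Per3 in 11. The other 8 genes lay between 36.4 ± 4.9 CPM per kb at Per3 and 29.9 ± 6.4 at Nr1d2. The order was Per3, Arntl, the Dbp region with the most tags, the Dbp start, Cry1, Hlf, Tef, Nr1d1 and Nr1d2, and each was within 0.25 of the larger SD of the next. Differences between genes further apart in this order were not tested.

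The 41 regions that not every library called were small and mostly single: 21 were called in 1 library, 18 in 2 to 10 and 2 in 11. Hlf had 9 of them, Arntl and Per2 had 8 each, and Per3 had 0. In Fisher's exact test on the number of libraries with a peak, none of the clock gene regions passed (0 of 16871 passed in the genome, with 99 at an unadjusted p under 0.05). With 6 libraries against 6, the smallest p this test can give is 0.0022. After adjustment over 16871 regions, 1 region alone cannot pass even when the groups are fully split. The lack of calls thus says nothing about single regions. The smallest unadjusted p was 0.061, at a region inside Nr1d1 (chr11:98769566-98770921) called in 4 pbs libraries (pbs 1, 3, 4 and 6) with 13 to 27 tags and in 0 d22 libraries. A region inside Tef (chr15:81821879-81822832) was called in 3 d22 libraries with 22 to 28 tags and in 0 pbs libraries. A region that a list lacks has no count, so these are calls and not levels.

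**Figure D5:**
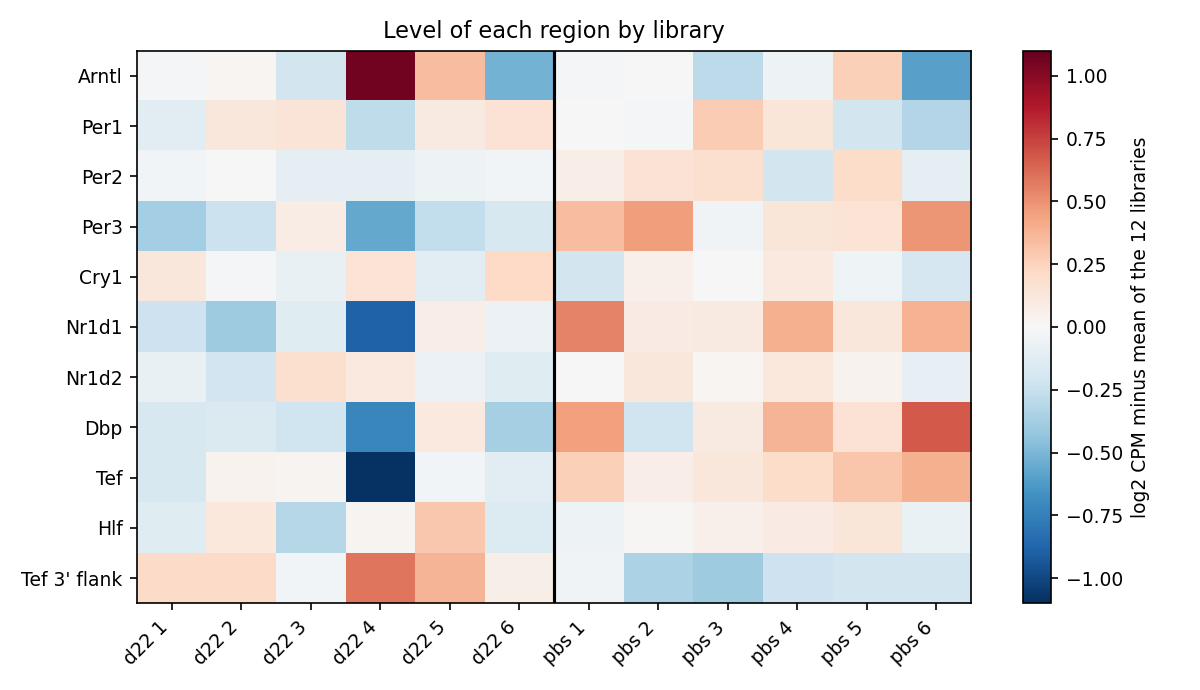
Log2 CPM of each region minus its mean over the 12 libraries (colour), for the same regions as in the plot of CPM by library, with d22 left and pbs right of the line. The column of d22 4 is the most extreme, at 1.06 for Arntl, -0.89 for Nr1d1 and -1.09 for the internal start of Tef.

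The libraries of 1 group also differed among themselves at these genes. Relative to the mean of the d22 group, d22 4 was at 0.95 (log2) for Arntl, -0.62 for Nr1d1, -0.46 for the Dbp region with the most tags and -0.86 for Tef, while Cry1, Nr1d2 and Hlf were at 0.11, 0.14 and 0.06. Over the 45 pairs of genes, deviations from the group means were correlated across the 12 libraries, with a permutation test within groups and Benjamini-Hochberg adjustment over the pairs. None passed, and 4 had an unadjusted p under 0.05. The highest was Nr1d1 with the Dbp region with the most tags, which also lies over Sphk2 and Rpl18. This pair had Pearson's r = 0.87 (permutation p = 0.0019, adjusted p = 0.086) and Spearman's rho = 0.77 (permutation p = 0.0061, adjusted p = 0.27). Without the libraries farthest from the median of Nr1d1 (d22 4 and d22 5), r was 0.67. Arntl with the same Dbp region was at r = -0.72 (permutation p = 0.030, adjusted p = 0.41) and at -0.17 without d22 4 and d22 6, so that relation rests on those libraries. With the region across the Dbp start instead, 0 pairs passed. Nr1d1 with Dbp was then at r = 0.77 (permutation p = 0.0043, adjusted p = 0.096) and rho = 0.70, and Arntl with Dbp at r = -0.44 (permutation p = 0.16).

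Among all regions at protein-coding genes with names, those whose levels followed the Dbp region with the most tags best over the 12 libraries were at Acaa1a (r = 0.96), Nr1d1 (r = 0.91) and Nubp1 (r = 0.90). For the region across the Dbp start they were at Dcxr (r = 0.92), Ppp1r16a (r = 0.91) and Acvrl1 (r = 0.91). For Arntl they were at Zfhx2 (r = 0.94), Park7 (r = 0.93) and Bbc3 (r = 0.91). These points share libraries, depth and scaling, and the values describe likeness only.

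Of 17 other genes of the clock, such as Clock, Npas2, Cry2, the ROR receptors and the casein kinases that act on the Per proteins, 15 had a region called in all libraries. The list was written with earlier results of these data known. None of the 15 passed in edgeR, beside 1.01% of all regions, and 2 had an unadjusted p under 0.05, beside 10.9% of all regions. Values were higher in d22 at 9 and lower at 6, with a median log2 difference of 0.05 beside 0.0032 over all regions. The smallest p-values belonged to Rora, an activator at ROR elements, with 166.6 ± 16.1 CPM in d22 and 142.9 ± 15.6 CPM in pbs (log2 difference 0.22 ± 0.09, adjusted p = 0.36), a sign that turns slightly under library totals (-0.0081), and to Bhlhe41, an E-box repressor, with 38.2 ± 7.7 and 48.4 ± 6.6 CPM (-0.35 ± 0.15, adjusted p = 0.40). Timeless came next at -0.14 ± 0.08.

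A list of 22 genes of liver physiology with a known daily rhythm was also written with earlier results of these data known. Its shares are thus no independent comparison with all regions. Of the 22 genes, 17 had such a region, and 1 passed, higher in d22, while 0 were lower, beside 0.453% of all regions higher and 0.558% lower. It was Lpin1, which encodes the phosphatidate phosphatase lipin 1 (chr12:16582149-16592480), with 407.3 to 500.8 CPM in d22 and 238.9 to 341.0 CPM in pbs. Every d22 library lay above every pbs library, and levels rose by 0.64 ± 0.10 on the log2 scale (adjusted p = 0.0048, edgeR), with an adjusted p of at most 0.0135 on leaving out any 1 library and 0.68 within the 49 bp libraries (adjusted p = 0.025). E2f8, an E2F repressor that takes part in making liver cells polyploid, was at 149.2 ± 22.2 CPM in d22 and 202.6 ± 33.8 CPM in pbs (-0.44 ± 0.12, adjusted p = 0.096), and Wee1, the kinase that holds cells before mitosis, at 85.6 to 108.4 CPM in d22 and 104.4 to 152.7 CPM in pbs (-0.33 ± 0.10, adjusted p = 0.15). The list's median was 0.03 beside 0.0032 over all regions, with 9 values higher and 8 lower. At an unadjusted p under 0.05 there were 6, beside 10.9% of all regions: Lpin1 with a higher value, and Wee1, E2f8, Usp2 (-0.44), Nr1i3 (-0.24) and Ppara (-0.32) with lower ones. The last 3 were named after their values were seen.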

How the data were processed

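Peak lists of 12 H3K9ac ChIP-seq libraries were used, and the pooled inputs were not analysed here. The submitters' processing notes name CASAVA 1.8 for base calling, Novoalign for alignment and mm10 as the genome. Per the file headers, MACS 1.4.2 took each library by itself against a pooled input, which held 12526421 tags where the title was d22 and 10409931 where it was pbs, at a p-value of 1e-05. As deposited, per the file headers, each peak has a raw count of tags, a ratio of fold enrichment and a score that multiplies the log10 of its p-value by -10 (used only as a filter in an alternative); the deposited false discovery rate in percent was not used.

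Peaks of the 12 lists that overlapped were joined into regions, and tags of 1 library were summed over its peaks within each region. Regions called in all 12 were tested with edgeR 4.0.16 (quasi-likelihood, robust, TMM), and log2 called length, tags per kb and fold enrichment with limma 3.58.1 (trend, robust), in R 4.3.3, with Benjamini-Hochberg adjustment at 0.05 over all regions; loci within 10 kb of protein-coding genes were tested likewise. CPM refers to tags in tested regions after TMM scaling. Standard errors come from the same fits. Occupancy of regions in 2 to 10 lists was tested with Fisher's exact test, and correlations 100000 permutations within groups (SciPy 1.17.1). Scripts were tested on simulated data.

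Gene spans (lower and upper end) and promoter sequences came from RefSeq tables of GRCm38.p6, the assembly behind mm10. The members and gene lists were chosen with earlier results of these data known. All 10 genes and every region were described; of the lists, genes that passed or the 3 smallest p-values were named, and for likeness the 3 highest correlations, leaving out predicted genes. In correlations, the region with the most tags was taken among those touching the gene, a departure from the plan, since flanking regions belong to other genes. No 2 libraries were duplicates (chi-square per degree of freedom 2.41 to 10.3 over 66 pairs). The alternatives were DESeq2 1.42.0, limma-voom, library totals, a score minimum of 100, a 500 bp merging gap, peaks in at least 6 libraries, smaller windows, tag-weighted fold enrichment, correlations without the 2 libraries farthest from the median, 49 bp libraries, the replicate block and each library left out; the correlations with the Dbp start region and without d22 4 were added after seeing the data.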

Additional observations from a re-analysis of the deposited data

Results flagged for a closer look

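Among the 6 d22 libraries, d22 4 was far from the others at 2 Tef regions. At the internal start of Tef it had 54.1 CPM, against 102.1 to 118.4 CPM in the other d22 libraries, and at the region 77 bp past the gene it had 196.4 CPM, against 62.1 to 98.4 CPM. These were 2 of 44 groups examined (22 regions in each of 2 title groups), and chance flags about 1 in 20. The library was the shallowest, with 6343891 tags, and had the most peaks, 44585; the part of these in the values was not tested. Without it the log2 differences at these regions were -0.28 and 0.44.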

How the results depend on the processing

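The count of clock gene regions with an adjusted p under 0.05 (1 by edgeR, of 125 over all regions) became 5 of 272 with DESeq2, 5 of 454 with library totals, 2 with a score of at least 100 and 0 of 39 in the 49 bp libraries; with peaks in at least 6 libraries, 72 of all regions passed. Leaving out 1 library gave 0 to 2 clock gene regions and 64 to 139 over all regions. Of the 10 loci, 0 passed in the edgeR fit, 1 with DESeq2 and 3 with library totals, while all loci (99) became 263 with DESeq2, 262 with library totals, 38 with no extension, 18 in the 49 bp libraries and 25 to 125 on leaving out 1 library. Replicate numbers are shared between the groups, but same-numbered libraries correlated at only -0.0067 to 0.16 and 1 of 6 d22 libraries matched its own number best, so the numbers were not taken as a pairing; with the replicate block 47 of all loci passed. Fold enrichment passed at 3 to 13 clock gene regions and 1552 to 3628 of all regions on leaving out 1 library. Called length passed at 0 to 35 of all regions, and tags per kb at 0 to 5 (19 with library totals, 5 otherwise). With library totals 4 pair correlations passed (0 otherwise). The cause of these shifts was not tested.

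Apart from the Tef locus (0.23 in the edgeR fit), signs turned at differences of at most 0.115 in size. With library totals the log2 differences became -0.11 (Vamp2 flank of Per1), -0.18 (Per1), -0.20 (Hes7 flank of Per1) and -0.12 (Cry1) for regions, and -0.16 (Per1) and -0.19 (Cry1) for loci. In the 49 bp libraries they were -0.0052 (Hes7 flank), 0.0699 (Hes6 flank of Per2), -0.0214 (Cry1 locus) and 0.0174 (Hlf locus). With a score of at least 100 the Cry1 locus was at -0.0066 and the Hlf locus at 0.0543. The Hes6 flank (-0.0004 in the edgeR fit) was at 0.0036 with DESeq2 and at 0.0112 with the replicate block. The Tef locus was at -0.26 with no extension and -0.14 with 2 kb. On leaving out 1 library the ranges were -0.0115 to 0.109 (Per1), -0.0140 to 0.0792 (Hes7 flank), -0.0499 to 0.0993 (Hes6 flank), -0.114 to 0.0251 (Hlf) and, for the Cry1 locus, -0.0357 to 0.0439. Of the single values for regions and loci under all alternatives, 588 kept direction and side of the threshold, 18 came to pass, 9 no longer passed and 33 changed sign. Counting error grows at regions with few tags, such as the Car11 flank of Dbp and the regions called in some libraries only.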
